A study of Rattus norvegicus with 6 samples.

Results

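The carnitine shuttle was followed in primary ventricular myocytes of newborn rats after knockdown of the non-coding RNA uc.323. The 9 genes were Cpt1a, Cpt1b, Cpt1c, Cpt2, Slc25a20, Crat, Slc22a5, Mlycd and Acacb. Probes were taken for a gene when the RefSeq accession printed on the array belonged to it, which gave 10 of the 30367 probes of the array (9 of 15168 named genes), 2 for Cpt1b and 1 for every other gene. The myocytes came from hearts of male Sprague-Dawley rats at 1 to 2 days of age. One group received an siRNA against uc.323 (si-uc.323) and the other a scrambled siRNA (si-scramble), each at 50 nmol/L for 3 h after 36 h of culture, followed by 21 h in medium free of serum. Both groups had been preplated against fibroblasts and held in bromodeoxyuridine, and each had 3 samples with 1 array apiece. The labels call the samples independent experiments without naming litters, so a p-value here speaks of the spread among these samples, whatever its source.

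Long-chain fatty acids reach the mitochondrial matrix only as esters of carnitine. A carnitine palmitoyltransferase of the outer membrane (the CPT1 family) makes the ester, a carrier in the inner membrane exchanges it for free carnitine, and CPT2 on the matrix side turns it back into acyl-CoA for beta-oxidation. Malonyl-CoA, made by acetyl-CoA carboxylases and removed by malonyl-CoA decarboxylase, blocks CPT1. Heart muscle relies on this route for much of its energy after birth, when the muscle isoform Cpt1b takes over from the liver isoform Cpt1a.

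The strand of the siRNA that the labels give is printed first, because every difference reported here is between this agent and its scrambled control. It was not searched against any transcript.

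si-uc.323: gguaaguaauuucagcaau

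Promoter sequences are shown for the 3 genes whose si-uc.323 and si-scramble values did not overlap and that have an entry in the RefSeq promoter table (GRCr8). The 4th such gene, Cpt1b, and Cpt1c have no entry, and 7 of the 9 genes matched. Each sequence is the 250 bases before the annotated start, 5′ to 3′ on the gene's strand, with GC boxes (GGGCGG on either strand) in capitals. They lie at chr3:34087100-34087349 on the minus strand (Crat), chr5:127910819-127911068 on the minus strand (Cpt2) and chr1:209995910-209996159 on the plus strand (Cpt1a).
Crat: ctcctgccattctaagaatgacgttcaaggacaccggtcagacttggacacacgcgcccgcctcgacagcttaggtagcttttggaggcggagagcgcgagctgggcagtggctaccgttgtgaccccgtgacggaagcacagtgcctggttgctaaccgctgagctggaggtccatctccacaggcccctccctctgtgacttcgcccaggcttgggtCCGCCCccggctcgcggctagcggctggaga
Cpt2: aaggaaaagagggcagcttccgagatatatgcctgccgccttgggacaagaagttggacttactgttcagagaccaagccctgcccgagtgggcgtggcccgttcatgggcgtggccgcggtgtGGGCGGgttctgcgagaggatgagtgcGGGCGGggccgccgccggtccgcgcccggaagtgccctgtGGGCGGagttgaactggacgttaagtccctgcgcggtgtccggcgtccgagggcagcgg
Cpt1a: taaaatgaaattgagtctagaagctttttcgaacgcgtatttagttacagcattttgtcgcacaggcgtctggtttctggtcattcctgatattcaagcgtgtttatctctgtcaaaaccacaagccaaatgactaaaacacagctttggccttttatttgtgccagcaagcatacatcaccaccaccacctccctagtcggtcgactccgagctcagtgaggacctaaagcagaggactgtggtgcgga

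The 3 windows differ in composition. The Cpt2 window is 66.8% G and C with 26 CpG pairs and 3 GC boxes, the Crat window 63.6% with 19 CpG pairs and 1 GC box, and the Cpt1a window 45.6% with 10 CpG pairs and no GC box. The median over 33469 promoters is 51.2% with 5 CpG pairs, and 30.5% of them hold a GC box. A search of both strands for the nuclear receptor half-site AGGTCA, the E-box CACGTG and the TATA box TATAAA found none of them in these 3 windows. Of all promoters, 14.1%, 5.59% and 12.9% hold them. Among the 7 genes with an entry, Acacb alone holds AGGTCA, once. A match or its absence in such a window describes the letters only.

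Each value below is the log2 processed signal of a probe minus the 75th percentile of its own array. Values of different probes cannot be set against each other as amounts of RNA. Of all 21994 probes tested with limma, 5.89% passed an adjusted p of 0.05 (Benjamini-Hochberg over all probes), 2.41% as lower and 3.48% as higher with si-uc.323. With a median shift, in which all arrays are brought to 1 median, the middle log2 fold change over all probes went from 0.06 to -0.08. The split of calls went from 766 higher and 529 lower to 511 and 848, with normexp to 455 and 647, and with quantile normalization to 855 and 976. Slide 1 held si-uc.323 replicate 1 beside the 3 si-scramble arrays. Slide 2 held si-uc.323 replicates 2 and 3, where 78.2% and 86.5% of probes were well above background against 71.8% to 73.9% on slide 1. No probe for uc.323 itself was used here.

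Of the 9 carnitine shuttle probes tested, 2 fell with si-uc.323, the brighter Cpt1b probe and the Crat probe, and none rose, against the 2.41% and 3.48% of all probes that fell and rose. For 4 of the 9, those of Cpt1b, Crat, Cpt2 and Cpt1a, every si-uc.323 value lay below every si-scramble value, against 15.8% of all probes, and no probe was higher without overlap, against 19.7%. Over the 8 genes tested, each at its brightest probe, the median log2 fold change was -0.23, against 0.02 over 11580 genes. The 10th probe, that of Acacb, was not in the fit because its only spot on 1 array was marked as an outlier. No tested probe owed its place to 1 group, since all 9 were well above background on all 6 arrays.

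**Figure D1:**
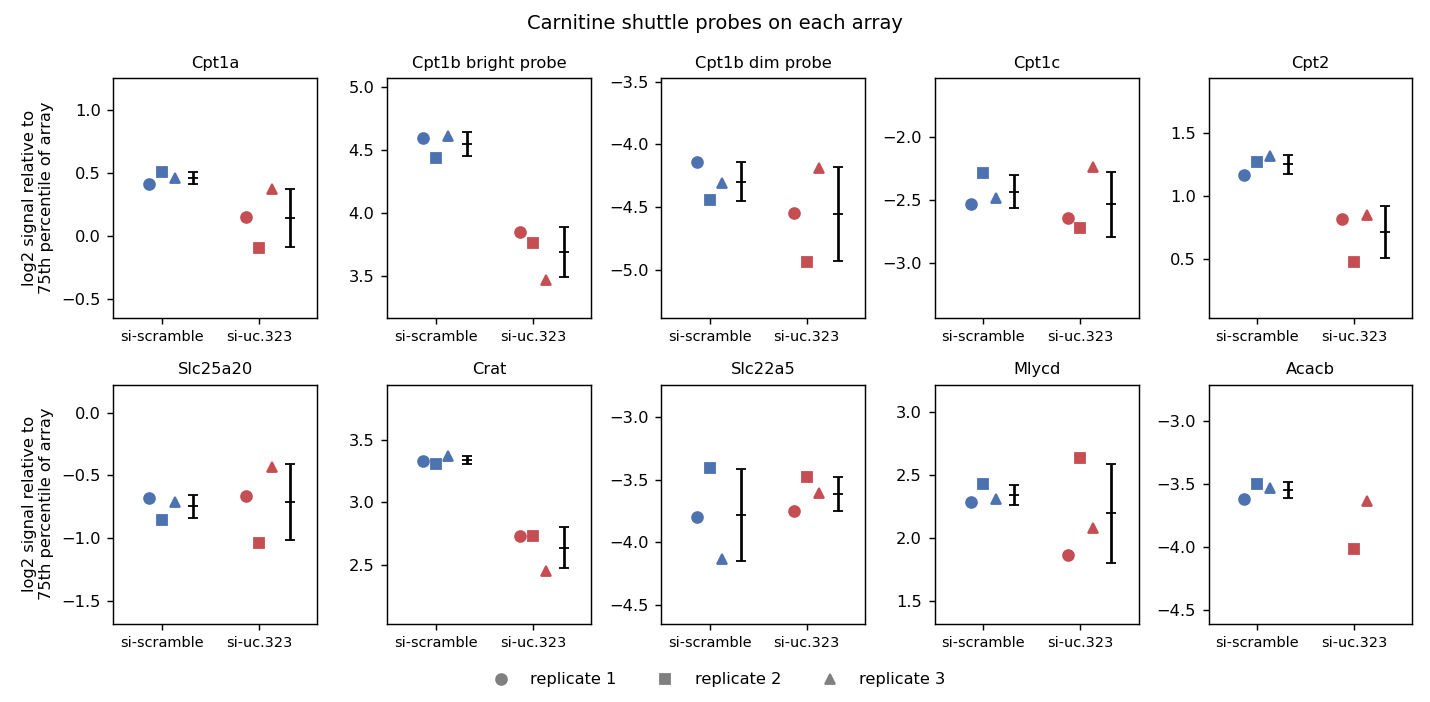
Log2 signal relative to the 75th percentile of each array for the 10 carnitine shuttle probes, with symbols for replicates and black bars for the mean ± SD of 3 arrays (none for Acacb with si-uc.323, which has 2 values). Each panel spans the same height on the log2 axis but has its own centre, and the groups are fully apart for the bright Cpt1b probe, Crat, Cpt2 and Cpt1a.

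Cpt1b, the muscle isoform of the outer membrane transferase, had the lowest log2 fold change of the 8 genes tested. Its bright probe (A_44_P289378) read 4.59, 4.44 and 4.61 on si-scramble replicates 1, 2 and 3 and 3.84, 3.76 and 3.46 on si-uc.323 replicates 1, 2 and 3. The lowest control value and the highest knockdown value were 0.59 apart, more than the whole range within either group (0.17 and 0.38). The log2 fold change was -0.86 ± 0.14 (SE, n = 3 and 3 arrays; 95% interval -1.18 to -0.54), so that the signal stood at 55.2% of its control level. The adjusted p was 0.0263 (limma), and 0.78% of all tested probes had a lower log2 fold change.

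The Cpt1b call held or was lost with the choice of arrays while the fold change moved little. Without si-scramble replicate 1, 2 or 3 the adjusted p rose to 0.123, 0.0906 and 0.143, with log2 fold changes of -0.83, -0.91 and -0.83. It remained a call without si-uc.323 replicate 1, 2 or 3 (adjusted p = 0.0469, 0.0295 and 0.0455 from limma, log2 fold changes -0.94, -0.89 and -0.75). On slide 1 alone, where si-uc.323 replicate 1 met all 3 controls, the log2 fold change was -0.70, which is also the value with slide as a block (adjusted p = 0.212). No gene of the 9 was called when any si-scramble array was left out.

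The second Cpt1b probe (A_64_P106151) is aimed at the same RefSeq transcript and was dim. It read -4.14, -4.44 and -4.30 on the si-scramble arrays and -4.54, -4.94 and -4.19 on the si-uc.323 arrays. Its groups overlapped, because si-uc.323 replicate 3 read higher than 2 of the 3 controls. Its log2 fold change was -0.26 ± 0.20 (95% interval -0.73 to 0.20, adjusted p = 0.424 from limma). This probe stood only 2.05 to 2.80 log2 units over the dimmest probe well above background on its array, whereas the bright probe stood 10.44 to 11.07 units over it. The distance between the bright and the dim probe on 1 array was 8.84 ± 0.10 in si-scramble and 8.25 ± 0.54 in si-uc.323 (SD, n = 3 and 3), a mean difference of -0.60. These distances did not overlap between the groups (exact 2-sided permutation p = 0.1, the smallest that 3 against 3 allows). With cyclic loess normalization the log2 fold changes of the bright and the dim probe lay closer, at -0.77 and -0.40.

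Cpt1a, the liver isoform, which neonatal heart cells also express, showed a smaller difference that did not pass. Its probe read 0.42, 0.51 and 0.46 in si-scramble and 0.16, -0.09 and 0.37 in si-uc.323 replicates 1, 2 and 3. The groups were apart by only 0.05, since si-uc.323 replicate 3 came close to the controls. On the log2 scale the difference was -0.32 ± 0.14 (95% interval -0.65 to 0.01, adjusted p = 0.191 from limma). The probe is printed 10 times on each array, and the spots of 1 array differed by an SD of 0.03 to 0.11, less than the 0.23 between the si-uc.323 arrays.

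Cpt1c, the isoform known mainly from brain, did not differ between the groups beyond their spread. It read between -2.53 and -2.29 in si-scramble and between -2.73 and -2.24 in si-uc.323, and the si-uc.323 values lay on both sides of the controls. Its difference was -0.10 ± 0.16 on the log2 scale, with an interval of -0.47 to 0.27 that includes 0.

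The CPT1 isoforms were also compared on the same array, where no shift of whole arrays alters the distance between them. A shift that differs between bright and dim probes would still alter it. The log2 distance of Cpt1b over Cpt1a was 4.18, 3.93 and 4.15 on the si-scramble arrays and 3.69, 3.85 and 3.09 on the si-uc.323 arrays. The groups did not overlap, and the mean difference was -0.54 (exact 2-sided permutation p = 0.1, and 0.111 after adjustment over 10 such comparisons). Against Cpt1c the mean difference was -0.76, again without overlap. The bright and the dim Cpt1b probe, aimed at the same transcript, differed by -0.60 in the same way. These distances alone do not show that an isoform changed against another.

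Crat, carnitine acetyltransferase, which moves acetyl groups between CoA and carnitine inside the mitochondrion, fell alongside Cpt1b. It read 3.33, 3.31 and 3.37 on the si-scramble arrays and 2.73, 2.73 and 2.45 on the si-uc.323 arrays. The controls agreed within 0.06, the tightest of the 10 probes, and the gap to the nearest si-uc.323 value was 0.57. The log2 fold change was -0.69 ± 0.12 (SE, n = 3 and 3 arrays; 95% interval -0.98 to -0.41; adjusted p = 0.03 from limma), or 61.8% of the control level. For both Crat and the bright Cpt1b probe si-uc.323 replicate 3 was the lowest array.

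The Crat call was less steady than the Cpt1b call. It was lost without si-scramble replicate 1, 2 or 3 (adjusted p = 0.13, 0.116 and 0.159) and also without si-uc.323 replicate 1 (adjusted p = 0.0583 from limma). The log2 fold change stayed between -0.74 and -0.60 when any array was left out, and it was -0.60 on slide 1 and with slide as a block (adjusted p = 0.231). The within-array distance of Cpt1b over Crat was 1.21 ± 0.07 in si-scramble and 1.05 ± 0.05 in si-uc.323 (SD, n = 3 and 3), without overlap, a mean difference of only -0.16.

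Cpt2, the transferase on the matrix side, was lower on all 3 si-uc.323 arrays without passing the threshold. It read 1.17, 1.28 and 1.32 in si-scramble and 0.82, 0.48 and 0.85 in si-uc.323 replicates 1, 2 and 3. The gap of 0.32 was about as wide as the range of the si-uc.323 group, 0.37. The log2 fold change was -0.54 ± 0.14 with an unadjusted 95% interval of -0.86 to -0.22, and the adjusted p was 0.0624 (limma). Its 10 spots on an array agreed within an SD of 0.03 to 0.05. Cpt2 did pass with normexp background correction (-0.53, adjusted p = 0.0417 from limma) and with the median shift (-0.67, adjusted p = 0.0375), and on slide 1 its value was -0.43. The distance of Cpt1b over Cpt2 overlapped between the groups (mean difference -0.32, exact 2-sided permutation p = 0.2). With so few arrays this permutation test cannot pass 0.05, so unequal change was not shown for this or any other pair of genes.

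**Figure D2:**
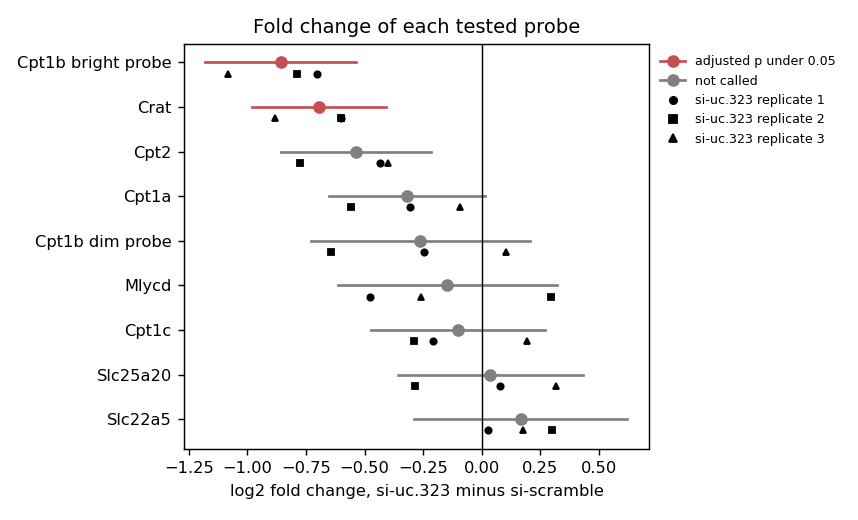
Log2 fold change of the 9 tested probes with 95% intervals (n = 3 and 3 arrays), and below each the 3 si-uc.323 arrays against the mean of the si-scramble arrays as black symbols. Cpt1b and Crat, in red, passed an adjusted p of 0.05, Cpt2 came next, and the intervals of the other probes include 0.

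The carrier Slc25a20, which exchanges acylcarnitine for carnitine across the inner membrane, did not differ between the groups beyond their spread. It read -0.68, -0.85 and -0.71 in si-scramble and -0.67, -1.03 and -0.43 in si-uc.323, so that si-uc.323 held both the lowest and the highest array. Its log2 fold change was 0.04 ± 0.17 (95% interval -0.36 to 0.43). Its sign turned with the median shift (-0.10), so no direction is given. The distance of Cpt1b over Slc25a20 on the same array was 5.29 ± 0.02 in si-scramble and 4.40 ± 0.46 in si-uc.323 (SD, n = 3 and 3), a mean difference of -0.89 without overlap.

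Slc22a5, the sodium-dependent carnitine transporter of the plasma membrane (OCTN2), was dim, and its controls were the most scattered of the 10 probes. They read -3.80, -3.40 and -4.13, while the si-uc.323 arrays read -3.75, -3.48 and -3.60, within the control range. On average the log2 difference was 0.17 ± 0.19 (95% interval -0.29 to 0.62), and its sign turned under normexp background correction (-0.02).

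In the malonyl-CoA arm Mlycd was the only member tested, and it was not called. Mlycd, malonyl-CoA decarboxylase, read 2.28, 2.43 and 2.31 in si-scramble. On the si-uc.323 arrays it read 1.87, 2.63 and 2.08, below all controls in replicates 1 and 3 and above all of them in replicate 2. As a log2 fold change this was -0.15 ± 0.20 (95% interval -0.61 to 0.32, adjusted p = 0.662 from limma). Without si-uc.323 replicate 2 it was -0.37 (adjusted p = 0.0881), and without replicate 1 its sign turned (0.02).

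Acacb, the acetyl-CoA carboxylase isoform tied to mitochondria, read -3.62, -3.50 and -3.53 in si-scramble and -4.02 and -3.63 in si-uc.323 replicates 2 and 3. Both si-uc.323 values lay below all controls. In the fit without si-uc.323 replicate 1 the log2 fold change was -0.28 ± 0.16 (adjusted p = 0.308 from limma). The outlier spot of replicate 1 read -1.90, and with it kept the sign turned to 0.36 ± 0.49. No direction can be given for Acacb.

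The members therefore varied among the si-uc.323 arrays in different ways. Cpt1b and Crat were lowest on replicate 3 (-1.08 and -0.88 against the control mean). On that same array the dim Cpt1b probe, Cpt1c and Slc25a20 lay above their control means (0.10, 0.19 and 0.32). On replicate 2 Cpt1a and Cpt2 had their lowest values (-0.56 and -0.77), while Mlycd had its highest (0.29).

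**Figure D3:**
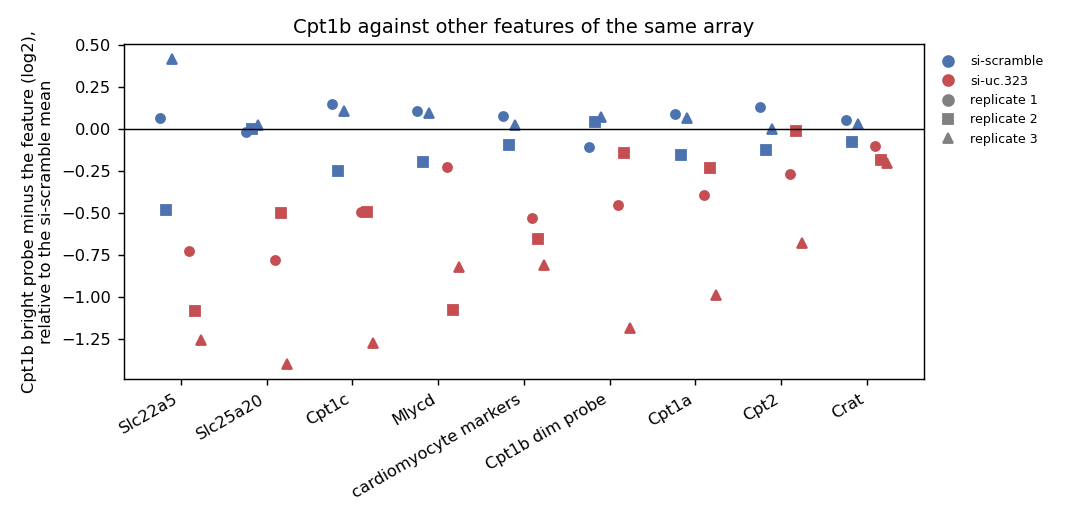
Log2 distance of the bright Cpt1b probe over another probe, or over the summed cardiomyocyte markers, on the same array, drawn relative to the mean of the 3 si-scramble arrays. Blue points are si-scramble, red points si-uc.323, and the symbol gives the replicate. The groups are apart for every feature except Cpt2, with mean differences from -0.16 (Crat) to -1.03 (Slc22a5). Cpt1b had the lowest log2 fold change of the genes tested, so negative differences against the other genes follow from it. How often such distances separate for other genes was not counted. A shift that differs between bright and dim probes would also alter them.

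Markers of cell types were read on the same arrays. All 10 cardiomyocyte markers were well above background on all 6 arrays. Their summed signal, in multiples of the 75th percentile, was 275 to 289 in si-scramble and 233 to 256 in si-uc.323, so it was lower with si-uc.323 without overlap. Cardiac actin Actc1 was the 1 marker of the 10 that passed the test (log2 fold change -0.63 ± 0.11, adjusted p = 0.0313 from limma). With it, 5 of the 10 were lower without overlap, against 19% of all genes, the others being Ryr2 (-0.46), Myl3 (-0.34), Tnni3 (-0.34) and Pln (-0.29). Nppa was higher without overlap (0.17), and Actn2, Myh6, Myl2 and Tnnt2 overlapped, at 0.17, 0.05, 0.01 and 0.01. Set against this sum on the same array, Cpt1b was still lower by -0.67 (from -3.59 ± 0.09 to -4.25 ± 0.14, SD, n = 3 and 3) and Crat by -0.50, both without overlap. In bulk samples fewer cells of a type and less RNA per cell cannot be told apart.

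Other cell types gave signal too. The 8 fibroblast markers, all well above background on every array, summed to 124 to 134 in si-scramble and 126 to 157 in si-uc.323, and 1 of them, Postn, rose (0.69 ± 0.12, adjusted p = 0.0311 from limma). Col3a1 was also higher without overlap (0.50) but was not called, and 2 of the 8 fibroblast markers had negative values. The smooth muscle sum was 33.2 to 37.4 against 34.4 to 41.5. Of the 5 smooth muscle markers 0 had a negative value and 0 were called, with a median of 0.41. Myh11 (0.56) and Rgs5 (0.42) were higher without overlap, as were 20.1% of all genes. The leukocyte sum was 3.79 to 3.90 against 2.99 to 3.22 and the endothelial sum 11.0 to 12.4 against 5.51 to 8.55, both lower with si-uc.323 without overlap. Their single markers did not share 1 direction, and none was called by limma. Cd68 (-0.41) and Kdr (-0.76), the brightest probes of these lists, were lower without overlap, while Adgre1 (0.42) and Tek (0.46), both dim, were higher without overlap. The median of the 4 leukocyte markers tested was 0.10 and that of the 4 endothelial markers -0.20. Of the adipocyte markers, which matter because brown fat also expresses Cpt1b, Cidea was well above background on all 6 arrays, Adipoq and Ucp1 on 2 and Lep on 1. Their summed signal, nearly all of it from Cidea, was 11.9 to 12.8 in si-scramble and 9.34 to 13.5 in si-uc.323. The part of these cells in the carnitine shuttle results was not tested.

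The steps around the shuttle were read from 6 lists of related genes, each gene at its brightest tested probe. Of 70 genes tested, 6 fell and none rose, which is 8.57%, against the 2.99% of all 11580 genes that fell and the 3.31% that rose. Their median log2 fold change was -0.16, against 0.02 for all genes. The direction of the calls depended on the arrays: without si-uc.323 replicate 2, 5 genes were called higher and 8 lower, without replicate 1, 1 higher and 3 lower, and without any 1 si-scramble array none was called (15 to 19 at an unadjusted p under 0.05 in limma).

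In fatty acid uptake and activation 1 of 11 genes fell, against 2.99% of all genes, with a list median of -0.26. It was Acsl1, the acyl-CoA synthetase that supplies the substrate of Cpt1b. It read 3.99, 3.66 and 3.93 on the si-scramble arrays and 3.12, 3.06 and 2.75 on the si-uc.323 arrays. Its log2 fold change of -0.88 ± 0.15 (adjusted p = 0.0291 from limma) was of the size seen for Cpt1b. The call was lost without any 1 of the si-scramble arrays (adjusted p = 0.129, 0.0881 and 0.146) and without si-uc.323 replicate 1 (0.053) or 3 (0.0521).

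Among the 15 genes of mitochondrial beta-oxidation, to which the shuttle delivers, none was called by limma, and 13 had a negative value (47.3% of all genes did), with a list median of -0.15. Acadvl, the very long chain acyl-CoA dehydrogenase, had the lowest adjusted p (-0.36 ± 0.10, adjusted p = 0.08) and Acads, the short chain enzyme, the next (-0.38 ± 0.13, adjusted p = 0.115). Carnitine synthesis, the other carnitine carriers and the peroxisomal transferase gave 4 tested genes, none of them called and none without overlap. The 2 with the lowest adjusted p were Crot, carnitine octanoyltransferase (-0.12 ± 0.13), and Slc22a4, the carrier OCTN1 (-0.09 ± 0.18).

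Of 11 other genes that set malonyl-CoA none was called, and the carboxylase gene Acaca was not tested. Without overlap, 3 of the 11 were lower and 2 higher, against 19% and 20.1% of all genes. Prkab1, a subunit of AMP-activated kinase, which inhibits acetyl-CoA carboxylase, read -0.50 ± 0.13 (adjusted p = 0.0679 from limma). The other subunits of this kinase did not share its direction. Prkab2 was lower without overlap (-0.24), but Prkaa1 (0.41) and Prkag1 (0.39) were higher without overlap. Prkaa2 (0.36) and Prkag2 (0.27) overlapped. Thrsp, a lipogenic regulator, read -5.33, -5.16 and -5.36 in si-scramble and -5.37 in si-uc.323 replicate 1, but -1.79 and -0.01 in replicates 2 and 3. Its high values were thus those of slide 2, and its log2 fold change was 2.89 ± 1.17 over all arrays and -0.08 on slide 1. Without si-uc.323 replicate 1 it was 4.38 (adjusted p = 0.0294 from limma), a call that rests on slide 2 alone.

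Transcription factors known to act on the Cpt1 genes had a list median of -0.11. Of 19 tested 3 were called, all lower, against the 2.99% of all genes that fell. These were Rxrg, a retinoid X receptor that pairs with PPARs (-1.43 ± 0.16, adjusted p = 0.0169 from limma), Klf15 (-0.85 ± 0.13, adjusted p = 0.0227) and Mef2a, a factor of muscle gene transcription (-0.59 ± 0.12, adjusted p = 0.0407). Mef2a read -1.01, -1.25 and -1.13 in si-scramble and -1.58, -1.81 and -1.78 in si-uc.323. Without overlap, 7 of the 19 were lower and 3 higher, against 19% and 20.1% of all genes. The 3 higher ones, Usf1 (0.47), Usf2 (0.47) and Pparg (0.46), were not called. Neither were the remaining lower ones, Esrra (-0.53), Mef2d (-0.50), Ppara (-0.49) and Ppargc1b (-0.41). Of 10 other genes known to respond to PPARs 2 fell, against 2.99% of all genes, with a list median of -0.39. They were Ucp3, a mitochondrial uncoupling protein (-1.38 ± 0.20, adjusted p = 0.0222 from limma), and Fgf21, a metabolic hormone (-0.68 ± 0.11, adjusted p = 0.0265). In this list 7 of the 10 were lower without overlap and none higher, against the same 19% and 20.1%. Pdk4, a kinase that inhibits pyruvate dehydrogenase, did not pass (-0.34 ± 0.10, adjusted p = 0.0875 from limma). None of these 5 calls held when a si-scramble array was left out.

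**Figure D4:**
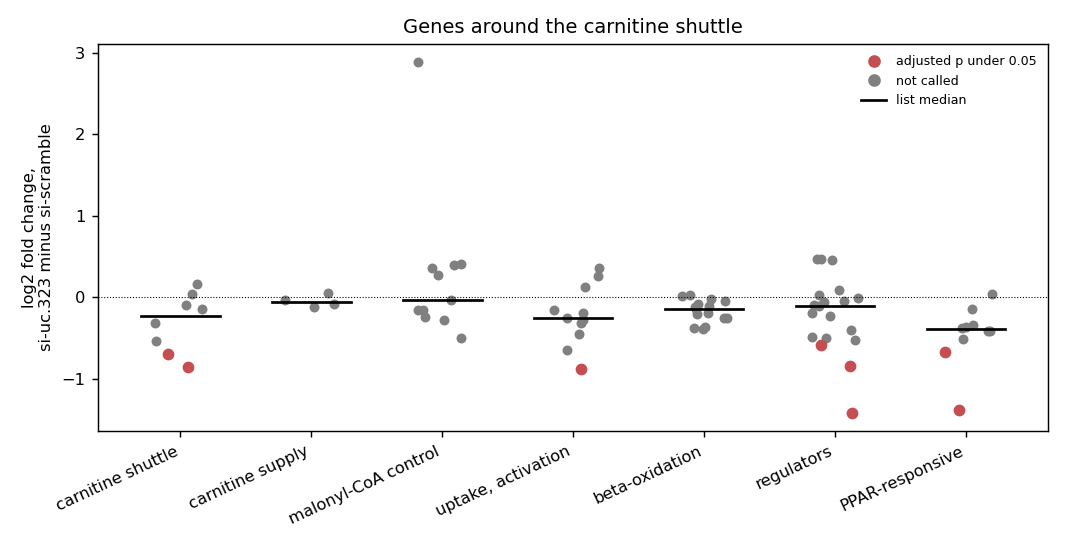
Log2 fold change of each tested gene at its brightest probe, by list, with the list median as a black line and genes at an adjusted p under 0.05 in red. The columns of points hold no called gene above 0, and the single point near 2.89 is Thrsp.

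The genes whose profile over the 6 arrays was most like that of the bright Cpt1b probe were sought among the 11580 genes. The measure was the root mean square distance between mean-centred log2 values, whose median over all genes was 0.50. The nearest 5 were Ccl2, a chemokine (0.014), Hopx, a homeodomain protein of cardiac muscle (0.04), Kcnh1, a potassium channel (0.05), Bmt2 (0.05) and Acsl1 (0.05). Their log2 fold changes lay between -0.88 (Acsl1) and -0.78 (Kcnh1 and Bmt2). These genes were chosen for their likeness to Cpt1b, so fold changes near its own follow from the choice. They share with Cpt1b the 6 arrays and their scaling, and the likeness rests on 6 points.

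**Figure D5:**
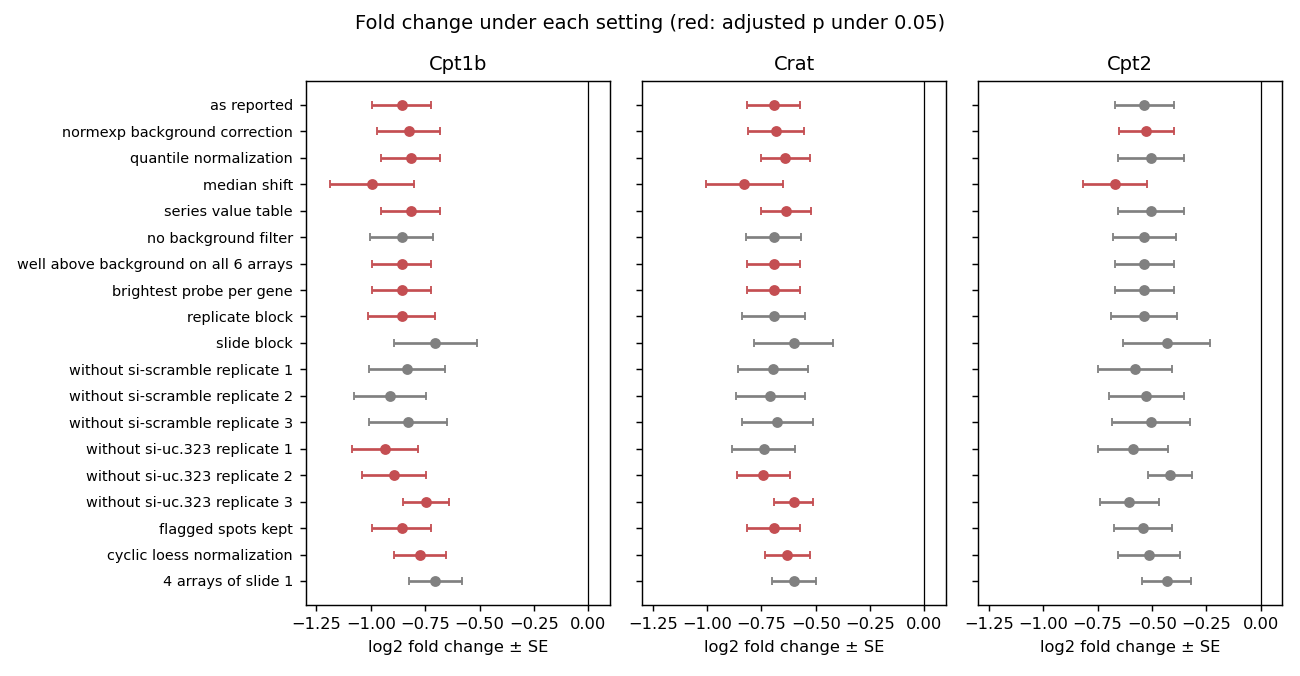
Log2 fold change ± SE of Cpt1b (bright probe), Crat and Cpt2 under each processing choice, one per line, in red where the adjusted p was under 0.05. All values are below 0, between -0.99 and -0.70 for Cpt1b. The calls of Cpt1b and Crat are missing with no background filter, with slide taken into account and without any 1 si-scramble array. That of Crat is also missing with the replicate block and without si-uc.323 replicate 1.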

How the data were processed

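Total RNA labelled with Cy3 was read on 1-colour Agilent arrays (design 028282). The authors used Agilent Feature Extraction 11.0.1.1, a tool that the submitters' processing notes name. The deposited intensity of each spot had its background subtracted and was detrended within the array, with no normalization across arrays, per the file headers. Deposited flags mark outlier spots and signal well above background. The deposited series matrix holds log2 values with a median of 6.51 in all 6 columns. It correlated with the scanner values at 0.995 to 0.999 per array and served as an alternative. Its centring was not stated.

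Outlier spots (322 to 594 of 42877 per array) were dropped, the 75th percentile of the array (1182 to 1775 units) was subtracted on the log2 scale, and a probe's spots were averaged. A probe was tested when it had a value on all 6 arrays and was well above background on every array of at least 1 group. Each probe was tested on its own with lmFit and eBayes (limma 3.58.1, R 4.3.3), without covariates. A RefSeq table of GRCr8 gave names by unversioned accession: 18005 probes had 1 gene, 0 had several and 12362 had none. The array design names build rn4, and no coordinates were taken across. Slides came from the headers' scan identifiers.

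The members and lists were chosen with earlier results of these data known. Named genes were all members, up to 4 called genes of a list (or the 2 with the lowest adjusted p), and the 5 nearest profiles. Pdk4, the regulators that were not called, the kinase subunits other than Prkab1 and the single markers named were picked after values were seen. The fit was tested on simulated data. Alternatives were normexp (offset 50, on median spot signal), quantile normalization, a median shift, the deposited log2 values, no background filter or one over all 6 arrays, the brightest probe per gene, blocks for replicate number and for slide, and omission of each array. Cyclic loess, a fit of slide 1, retained outlier spots and within-array distances were added after the data were seen. The number of arrays limits the precision, and no spot was saturated. Plots used matplotlib 3.10.9 (Python 3.11.15).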

Additional observations from a re-analysis of the deposited data

How the results depend on the processing

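Of 9 carnitine shuttle probes, 2 were called, and this count held under quantile normalization, the series table, the filter over all 6 arrays, the brightest probe per gene, cyclic loess and with outlier spots kept, and rose to 3 with normexp and the median shift. It was 0 with no background filter, with the slide block and on the 4 arrays of slide 1, and 0 to 2 when 1 array was left out. For all probes the count of 1295 became 0 with no background filter (5676 at an unadjusted p under 0.05 in limma), 9 with the slide block, 0 on slide 1 (6577), 2162 with cyclic loess and 0 to 3153 with 1 array left out. Of the 70 related genes, where 6 were called, 11 were called with quantile normalization and the series table, 10 with the median shift, 13 with cyclic loess, 0 with no background filter, the slide block and slide 1, and 0 to 13 with 1 array left out (5 of the 13 higher, without si-uc.323 replicate 2). The replicate numbers were not treated as pairs in the main fit. Deviations of same-numbered samples from their group means correlated at 0.20, 0.39 and -0.11, which cannot settle whether the samples were paired. With the replicate block 1 carnitine shuttle probe (Cpt1b, with Crat at an adjusted p of 0.0502) and 804 probes in all passed. Signs turned for Slc25a20 (-0.10 with the median shift, -0.02 without si-scramble replicate 2, -0.10 without si-uc.323 replicate 3), Slc22a5 (-0.024 with normexp, -0.0098 to 0.35 with 1 array left out), Mlycd (-0.37 to 0.017) and Slc22a4 (-0.27 to 0.043) with 1 array left out, and Thrsp (-0.085 with the slide block and on slide 1). Causes were not tested. Dim probes such as those of Slc22a5, Acacb and the second Cpt1b probe limit what a small change can show.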

Other observations

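The genes next to Cpt1b and Crat on the chromosome were looked up in the RefSeq gene table and chosen after values had been seen. Chkb, choline kinase beta, which neighbours Cpt1b, read 0.15, 0.14 and 0.20 on the si-scramble arrays and -0.16, -0.41 and -0.09 on the si-uc.323 arrays. The groups did not overlap, and the log2 fold change of -0.38 ± 0.12 did not pass (adjusted p = 0.0982 from limma). Syce3, on the other side of Cpt1b, was dim, at -4.52 to -4.41 in si-scramble and -4.73 to -4.61 in si-uc.323 (-0.22 ± 0.11, adjusted p = 0.224). Next to Crat, Ptpa, an activator of protein phosphatase 2A, read -0.22 ± 0.12 (adjusted p = 0.273) without overlap, and Dolpp1, a dolichyl pyrophosphate phosphatase, read -0.54 ± 0.46 with overlapping groups (adjusted p = 0.469). Of 14 measured neighbours of the other members 2 passed, against 6.3% of all genes called in either direction. Tsks, beside Cpt1c, fell (-0.65 ± 0.10, adjusted p = 0.0263 from limma), and Ung, a uracil-DNA glycosylase beside Acacb, rose (0.98 ± 0.17, adjusted p = 0.0302).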
